A study of Mus musculus with 4 samples.

Results

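The amyloid precursor protein family (App, Aplp1 and Aplp2) and the cell surface glycoprotein gene Thy1 were followed across the nuclei of the mouse brain, 4 genes chosen by symbol out of 32285 features. App encodes a single-pass membrane protein that is cut by the secretases, and cleavage by beta-secretase and then gamma-secretase releases amyloid-beta. Aplp1 and Aplp2 encode its relatives, which share the extracellular domains and the sorting signals of the cytoplasmic tail but lack the amyloid-beta stretch. Thy1 encodes a GPI-anchored protein of the immunoglobulin superfamily that is abundant on projection neurons, and its regulatory sequence is the usual cassette for driving transgenes in forebrain neurons.

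Nuclei came from brains of 5XFAD mice, a line that carries mutant human APP under a Thy1 cassette. All animals were female, 7 to 10 weeks old, and received intravenous extracellular vesicles (EVs) at 6550000000 particles. The EVs were rebuilt from adipocyte lipids, carried transferrin, and held a low (PE-low) or a high (PE-high) load of phosphatidylethanolamine (PE) set during their formulation. Each group had 2 libraries, and the nuclei of each library were pooled from 2 mice. No untreated or wild-type library was analysed here, so all values below describe EV-treated 5XFAD brain. The feature list held 0 rows for human APP, so a transgene read that aligned to mouse App or Thy1 cannot be told apart from an endogenous read. The pooled mice of a library cannot be separated, and the p-values of the PE comparisons measure the spread between 2 libraries per group. The p-values between classes or subtypes measure how those differences vary from library to library.

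The files gave 29472021 to 43272337 UMIs (unique molecular identifiers, 1 per captured RNA molecule) per library. Of 8742 to 13915 barcodes called as nuclei, 1457 to 3458 per library passed the limits of 200 to 2500 genes and 3% mitochondrial UMIs, with medians of 1712 to 2885 UMIs. The loss was uneven. PE-low libraries 1 and 2 kept 2778 of 12010 and 2996 of 8742, and PE-high libraries 1 and 2 kept 1457 of 13915 and 3458 of 10869. Called barcodes shared between any pair of libraries numbered 28 to 53. Clusters were named from marker lists without using the 4 genes. The marker check was 4 of 6 markers highest in their own class for excitatory neuron-like, 7 of 7 for striatal projection neuron-like, 3 of 4 for inhibitory neuron-like, 7 of 7 for astrocyte-like and oligodendrocyte-like, 5 of 5 for oligodendrocyte precursor-like and 6 of 8 for microglia-like nuclei. The kept nuclei comprised 4553 excitatory, 2795 striatal projection and 1879 inhibitory neuron-like nuclei, and 491 oligodendrocyte-, 493 astrocyte-, 221 precursor- and 102 microglia-like nuclei.

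The App gene lies on chr16:84949685-85173766 (minus strand, mm10, GENCODE M21) and spans 224 kb, of which 5.80% is exonic. Aplp1 lies on chr7:30434982-30445535 (minus strand, 10.6 kb, 28.6% exonic), Aplp2 on chr9:31149557-31211815 (minus strand, 62.3 kb, 9.44% exonic) and Thy1 on chr9:44043384-44048579 (plus strand, 5.20 kb, 57.6% exonic). These spans matter for nuclear RNA, which is rich in introns, so levels are compared below between classes of nuclei for each gene and not between genes. The promoter windows of the 3 family genes are shown because these genes are measured in every class of nuclei. They run from 250 bases before to 50 after the start (RefSeq, GRCm38.p6), read 5′ to 3′ on the gene's strand, and capitals mark the GC box, GGGCGG or its reverse complement CCGCCC.
App (chr16:85173658-85173957, minus strand): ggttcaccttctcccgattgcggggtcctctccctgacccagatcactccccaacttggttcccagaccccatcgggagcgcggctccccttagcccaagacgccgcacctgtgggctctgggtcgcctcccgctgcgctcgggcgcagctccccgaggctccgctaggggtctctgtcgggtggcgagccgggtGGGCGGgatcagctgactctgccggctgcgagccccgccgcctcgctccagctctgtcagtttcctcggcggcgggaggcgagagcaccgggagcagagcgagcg
Aplp1 (chr7:30445533-30445832, minus strand): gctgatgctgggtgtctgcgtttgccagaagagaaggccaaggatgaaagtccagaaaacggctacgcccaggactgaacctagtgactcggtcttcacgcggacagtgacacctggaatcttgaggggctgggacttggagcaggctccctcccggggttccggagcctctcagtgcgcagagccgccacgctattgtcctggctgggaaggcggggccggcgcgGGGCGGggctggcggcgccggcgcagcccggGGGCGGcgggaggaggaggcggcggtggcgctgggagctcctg
Aplp2 (chr9:31211799-31212098, minus strand): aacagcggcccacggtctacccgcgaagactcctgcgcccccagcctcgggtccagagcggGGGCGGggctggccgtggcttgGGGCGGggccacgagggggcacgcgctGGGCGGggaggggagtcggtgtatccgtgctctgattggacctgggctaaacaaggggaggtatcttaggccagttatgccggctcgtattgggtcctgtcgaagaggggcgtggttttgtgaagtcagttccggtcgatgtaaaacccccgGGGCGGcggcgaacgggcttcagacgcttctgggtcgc
With both strands searched, the App window held 1 GGGCGG, the Aplp1 window 2 and the Aplp2 window 4, and 35.7% of 32851 promoter windows of the same length held this motif. Neither TATAAA nor CACGTG was found in the 3 windows, against 13.6% and 7.15% of all windows. Their GC content was 71% for App, 68.7% for Aplp1 and 67% for Aplp2, beside a median of 52.7%, and they held 30, 26 and 29 CG dinucleotides against a median of 7. Of the 4 genes, 3 were matched in this table, and Thy1 was not.

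The first question was how much of each gene's signal belonged to nuclei. Barcodes with few UMIs (near-empty), whose RNA leaked out of damaged cells, were richer in Aplp1 and Thy1 than the nuclei were. Thy1 stood at 1404, 1345, 1193 and 1238 CPM (counts per 1000000 UMIs) in the near-empty barcodes of PE-low libraries 1 and 2 and PE-high libraries 1 and 2, and at 250.3, 206, 209 and 198 CPM in the kept nuclei of the same libraries. That is a ratio of 5.61 to 6.52, above that of 89.9% to 93.9% of the genes compared. These were the 4718 to 6374 genes per library with enough UMIs in both near-empty barcodes and nuclei. The minimum was higher for near-empty barcodes than for nuclei. That favours genes rich in near-empty barcodes, so the set compared is not a neutral reference. For Aplp1 the ratio was 4.44 to 5.27 and for Aplp2 2.42 to 2.82. For App it was 1.41 to 1.63, close to the median of the genes compared of 1.504 to 1.669. Meg3, a long noncoding RNA kept in the nucleus, gave 0.165 to 0.229. Among the 4 members App thus had the lowest and Thy1 the highest ratio in each library.

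**Figure D1:**
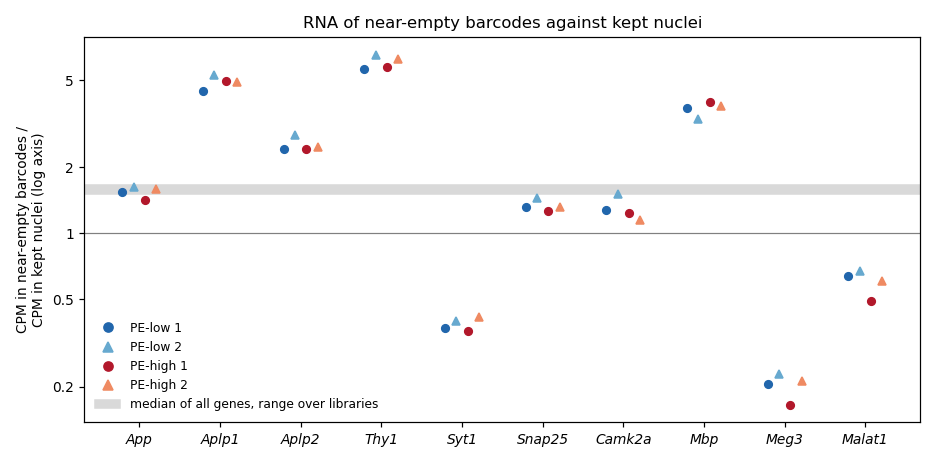
Ratio of CPM in near-empty barcodes to CPM in kept nuclei for the 4 genes and 6 reference genes (log axis), 1 point per library. The grey band is the range of the median of all genes with enough UMIs in both. Thy1 lies between 5.61 and 6.52 and Aplp1 between 4.44 and 5.27 in all 4 libraries, while App lies near the band.

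Each class also held RNA of other cells. From markers of the other classes, the released RNA was estimated at 21.5% to 26.4% of the UMIs of excitatory neuron-like nuclei, 23.6% to 29.7% for inhibitory and 30.5% to 39.4% for striatal projection neuron-like nuclei. The estimate was 48.5% to 72.7% for oligodendrocyte-like and 65.4% to 84.8% for microglia-like nuclei. When that RNA was subtracted, Thy1 and Aplp1 came to 0 CPM in each of the 7 classes, so their class levels below stay within what the estimate assigns to released RNA. App kept 373 CPM in excitatory, 422 in inhibitory, 298 in striatal projection neuron-like and 432 in oligodendrocyte-like nuclei, and 0 in astrocyte-like nuclei. Aplp2 kept 65.8 CPM in excitatory and 101 in inhibitory neuron-like nuclei.

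Before subtraction of released RNA, App was highest in oligodendrocyte-like nuclei, the myelin-forming glia, and similar in level across the 3 neuron classes. Its level in oligodendrocyte-like nuclei was 703 and 777 CPM in the PE-low libraries and 760.4 and 656 CPM in the PE-high libraries. In inhibitory neuron-like nuclei App read 583, 536, 524 and 507 CPM in the same order of libraries. The 4 oligodendrocyte values thus lay above all 4 inhibitory values, and this was the only gap without overlap in the order of the 7 classes for App. Striatal projection neuron-like nuclei followed with 531, 481, 479 and 475 CPM, and excitatory neuron-like nuclei with 548, 468, 459 and 472 CPM. Their ranges overlapped with each other and with the class above, although inhibitory exceeded striatal projection neuron-like nuclei in 4 of 4 libraries. Microglia-, precursor- and astrocyte-like nuclei had means of 428 ± 130.4, 408 ± 101 and 342 ± 90.4 CPM (SD, n = 4 libraries), with ranges that overlapped.

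Oligodendrocyte-like nuclei exceeded the mean of the other glia by 1.05 ± 0.14 (log2 ± SE, adjusted p = 6.86e-09, edgeR quasi-likelihood test with Benjamini-Hochberg adjustment, 4 libraries per class) for App. Aplp1 was also higher there, by 0.71 ± 0.18 (adjusted p = 0.00224), with 233, 233, 226 and 162 CPM in oligodendrocyte-like against 202, 176, 159 and 192 CPM in astrocyte-like nuclei. Both calls were made in each alternative in which the gene could be tested, 13 for App and 12 for Aplp1. The alternative missing for Aplp1 was the subtraction of released RNA, which left none of it in any class to test. Aplp2 (adjusted p = 0.181) and Thy1 (adjusted p = 0.325) were not called, so 2 of 4 members were called beside 20% of the 7253 genes tested. The neuron markers Syt1, Snap25, Grin1 and Rbfox3 stood in oligodendrocyte-like nuclei at 31.4% to 55.6% of their summed level in excitatory neuron-like nuclei of the same library. App in oligodendrocyte-like nuclei stood at 128% to 166% of its excitatory level, and Aplp1 at 141% to 203%. The part of released neuronal RNA in the oligodendrocyte-like levels was not tested beyond the subtraction above.

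The 3 neuron classes together exceeded the 4 glial classes for App by 0.35 ± 0.09 (log2 ± SE, edgeR adjusted p = 0.00101), while Aplp1 (adjusted p = 0.572), Aplp2 (0.820) and Thy1 (0.812) were not called. This made 1 of 4 members called, beside 43.3% of all genes. With the sums scaled to total UMIs in place of TMM factors the App difference was 0.16 and not called (adjusted p = 0.139). In the glial classes the 4 neuron markers stood at 21.2% to 85.2% of the excitatory level, lowest in precursor-like and highest in microglia-like nuclei, and Thy1 at 36.3% to 153%. The part of released neuronal RNA in the glial levels was not tested beyond the subtraction above.

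**Figure D2:**
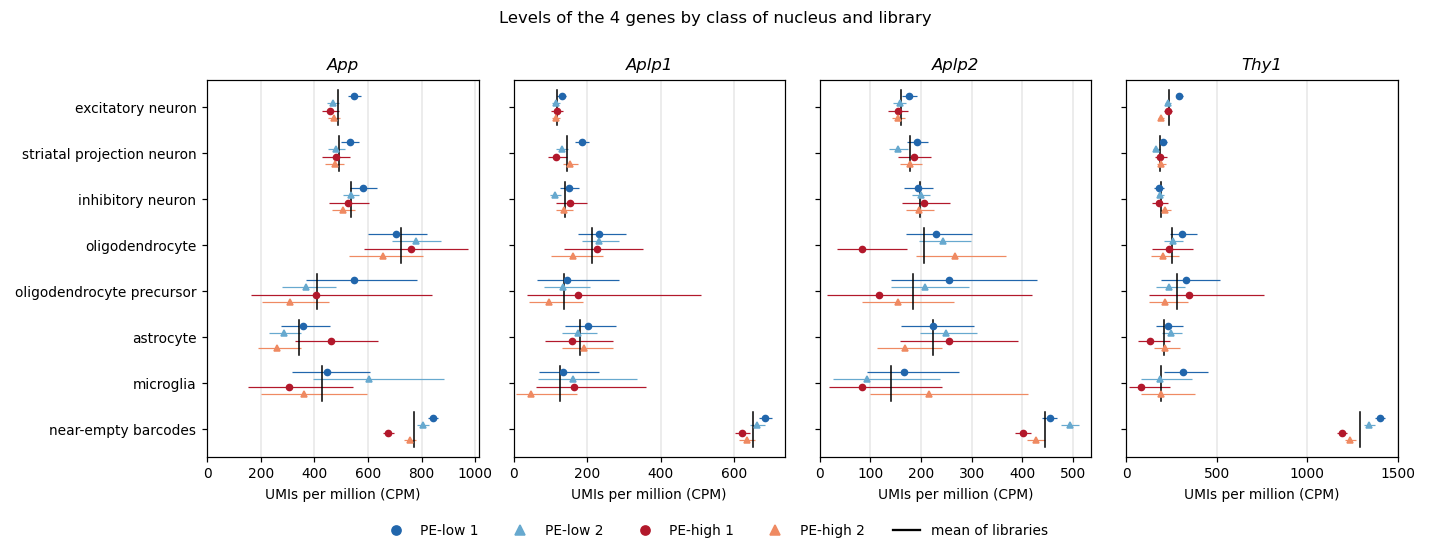
CPM of the 4 genes in 7 classes of nuclei and in near-empty barcodes, 1 point per library with its 95% Poisson interval (counting error only) and a bar for the mean of the libraries. The oligodendrocyte points of App lie between 656 and 777 CPM, above all inhibitory neuron points, and near-empty barcodes lie above every class for Aplp1 and Thy1. All levels are shown before subtraction of released RNA.

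Shares of nuclei with a UMI moved with the depth of the nuclei, so they are given before and after thinning. Before thinning, 68.3% of excitatory neuron-like nuclei (median 2508 UMIs) and 33.9% of astrocyte-like nuclei (median 1239 UMIs) held an App UMI. After every nucleus was thinned to 1000 UMIs and shallower nuclei were left out, App was seen in 52.6% of oligodendrocyte-like nuclei (95% exact binomial interval 47.0% to 58.0%, 158 left out), 39.3% of excitatory (37.9% to 40.8%, 103 left out), 38.6% of inhibitory (36.3% to 40.8%, 74 left out), 38.8% of striatal projection neuron-like (36.9% to 40.7%, 178 left out) and 26.8% of astrocyte-like nuclei (22.1% to 31.9%, 157 left out). For Thy1 the thinned share was 19.7% in excitatory neuron-like (18.6% to 20.9%), 18.2% in inhibitory (16.5% to 20.1%), 20.4% in oligodendrocyte-like (16.2% to 25.2%) and 22.4% in microglia-like nuclei (13.6% to 33.4%, 26 left out). Microglia do not normally make Thy1, and the shares of the neuron classes lay below the microglia-like share and within its interval, so no expression of Thy1 is read from them. Intervals cover counting error within the pooled nuclei only.

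Among the neuron classes no difference of App was detectable. Before subtraction of released RNA, Thy1 was higher in excitatory neuron-like nuclei, and Aplp1 was higher in striatal projection neuron-like nuclei. Neither gene kept any signal in these classes after subtraction, and the part of released RNA in the differences was not tested. Thy1 read 294, 229.6, 228 and 191 CPM in excitatory, 181, 189, 184 and 215 CPM in inhibitory and 201, 165, 188 and 195 CPM in striatal projection neuron-like nuclei. The excitatory value was the highest of the 3 in both PE-low libraries and in PE-high library 1 but not in PE-high library 2. The difference was 0.40 ± 0.12 (log2 ± SE, edgeR adjusted p = 0.00454) against inhibitory and 0.32 ± 0.11 (adjusted p = 0.0171) against striatal projection neuron-like nuclei. Without PE-low replicate 1 neither was called (adjusted p = 0.169 and 0.146). After thinning to 500 UMIs the difference from striatal projection neuron-like nuclei was 0.07 (adjusted p = 0.732).

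Aplp1 read 131, 115, 118 and 115 CPM in excitatory, 150.4, 114, 154 and 137 CPM in inhibitory and 185, 131, 117 and 154 CPM in striatal projection neuron-like nuclei, and these ranges overlapped. On the log2 scale excitatory minus striatal was -0.33 ± 0.10 (edgeR adjusted p = 0.00758), and the call was lost without PE-low replicate 1 (adjusted p = 0.157) or PE-high replicate 2 (adjusted p = 0.127). Inhibitory minus striatal was -0.29 ± 0.12 (adjusted p = 0.0394) and was lost in 6 of 12 alternatives, PE-low replicate 1, PE-low replicate 2 and PE-high replicate 2 left out among them (adjusted p = 0.280, 0.193 and 0.229). Aplp2 stood at 161 ± 10.8, 199 ± 5.09 and 178 ± 16.6 CPM (SD, n = 4) in excitatory, inhibitory and striatal projection neuron-like nuclei and was called in none of the 3 comparisons (edgeR adjusted p = 0.290, 0.302 and 0.905). App was likewise uncalled (adjusted p = 0.941, 0.889 and 0.971). The counts of members called were 1 of 4 for excitatory against inhibitory beside 37.0% of all genes, 2 of 4 for excitatory against striatal beside 48.7%, and 1 of 4 for inhibitory against striatal beside 46.5%, so none stood clear of its background.

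Thy1 had the widest ratio of highest to lowest subtype mean among the members, from 441 ± 133 CPM in layer 5-like to 137 ± 17.7 CPM in subcortical glutamatergic-like neurons (SD, n = 4 and 3 libraries). In layer 5-like neurons, the large output neurons of the cortex, Thy1 read 561 and 542 CPM in the PE-low and 371 and 288 CPM in the PE-high libraries, from 238, 152, 81 and 119 UMIs. Layer 6 corticothalamic-like neurons, which project to the thalamus, held 426, 283, 304 and 238 CPM. Upper layer-like neurons, which connect cortical areas, held 190.3, 160.5, 166 and 160.2 CPM, and middle layer-like neurons 195, 173, 171 and 139 CPM. The deep layers 5 and 6 corticothalamic thus lay above the upper and middle layers in every library, whereas layer 6b-like neurons held 256, 177, 190.2 and 151 CPM and overlapped with the upper layers. After subtraction of released RNA, Thy1 kept 276 CPM in layer 5-like neurons, although the excitatory class that holds them kept none. The value depends on the estimate of released RNA for this subtype, which is not given here. After thinning to 1000 UMIs, 29.8% of layer 5-like (25.6% to 34.4%, 1 left out) and 14.5% of upper layer-like nuclei (12.4% to 16.9%, 15 left out) held a Thy1 UMI, on either side of the 22.4% of microglia-like nuclei, whose interval overlapped with both.

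Upper layer-like minus layer 6 corticothalamic-like neurons was -0.82 ± 0.13 (log2 ± SE, edgeR adjusted p = 1.33e-07) for Thy1, and it was called in 13 of 13 alternatives. App (adjusted p = 0.890), Aplp1 (0.367) and Aplp2 (0.915) were not called there, so 1 of 4 members was called beside 23.3% of 8996 genes. Layer 5 against the other layers was not among the comparisons tested. Subcortical glutamatergic-like neurons had 156, 133 and 122 CPM of Thy1 from 4, 34 and 5 UMIs in PE-low libraries 1 and 2 and PE-high library 2, and PE-high library 1 had no such nucleus and was dropped from their fit. Their difference from the cortical excitatory mean was -0.98 ± 0.25 (edgeR adjusted p = 0.00147), 1 of 4 members beside 18.9% of all genes. The call was lost after subtraction of released RNA (adjusted p = 1) and after thinning to 500 UMIs (-0.86 ± 0.54, adjusted p = 0.351). At a mitochondrial limit of 15% the difference turned to 1.30 and was called in that direction (adjusted p = 6.38e-22), where that name covered 1126 nuclei in place of 99, and 947 of them formed a cluster with a median of 619 UMIs.

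App differed less between subtypes. Its means ran from 394 ± 59.2 CPM in layer 6b-like neurons over 421 ± 57.4 in the upper layer, 428 ± 54.6 in layer 6 corticothalamic, 483 ± 35.0 in the Sst and Pvalb class, 484 ± 10.9 in indirect pathway, 536 ± 58.1 in the middle layer, 549 ± 65.1 in direct pathway, 565 ± 121 in subcortical inhibitory, 585 ± 196 in subcortical glutamatergic (n = 3) and 587 ± 28.3 in layer 5 to 635 ± 82.0 CPM in the Adarb2 class (SD, n = 4 where not given). Every neighbour in this order overlapped with the next, although middle layer-like exceeded indirect pathway-like neurons, and the Sst and Pvalb class exceeded layer 6 corticothalamic-like neurons, in 4 of 4 libraries. Layer 5-like neurons held 627, 567, 587 and 566 CPM and upper layer-like neurons 504, 408, 374 and 397 CPM, so the 2 sets of values did not overlap. Aplp2 was highest in the interneuron subtypes, with 256 ± 43.7 CPM in the Adarb2 class and 222 ± 11.7 CPM in the Sst and Pvalb class, and lay between 157 and 182 CPM in the other subtypes with 4 libraries.

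Between the interneuron classes, Aplp1 was the only member called. The Sst and Pvalb class held 132, 67.1, 109 and 115 CPM and the Adarb2 class 245, 93.3, 342 and 139 CPM, from as few as 12 UMIs in a library. The difference was -0.70 ± 0.24 (log2 ± SE, edgeR adjusted p = 0.0553), 1 of 4 members called beside 10.0% of all genes. The call was lost without PE-low replicate 1 (adjusted p = 0.209), without PE-high replicate 1 (0.324), with no filter on low counts, after thinning and at a threshold of 0.05. Direct pathway-like neurons, which carry Drd1, and indirect pathway-like neurons, which carry Drd2, differed in 0 of 4 members (edgeR adjusted p = 0.830, 0.989, 0.955 and 0.501 for App, Aplp1, Aplp2 and Thy1) beside 4.97% of all genes. Thy1 had the lowest unadjusted p there, 0.0653, with a difference of -0.29 ± 0.16.

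**Figure D3:**
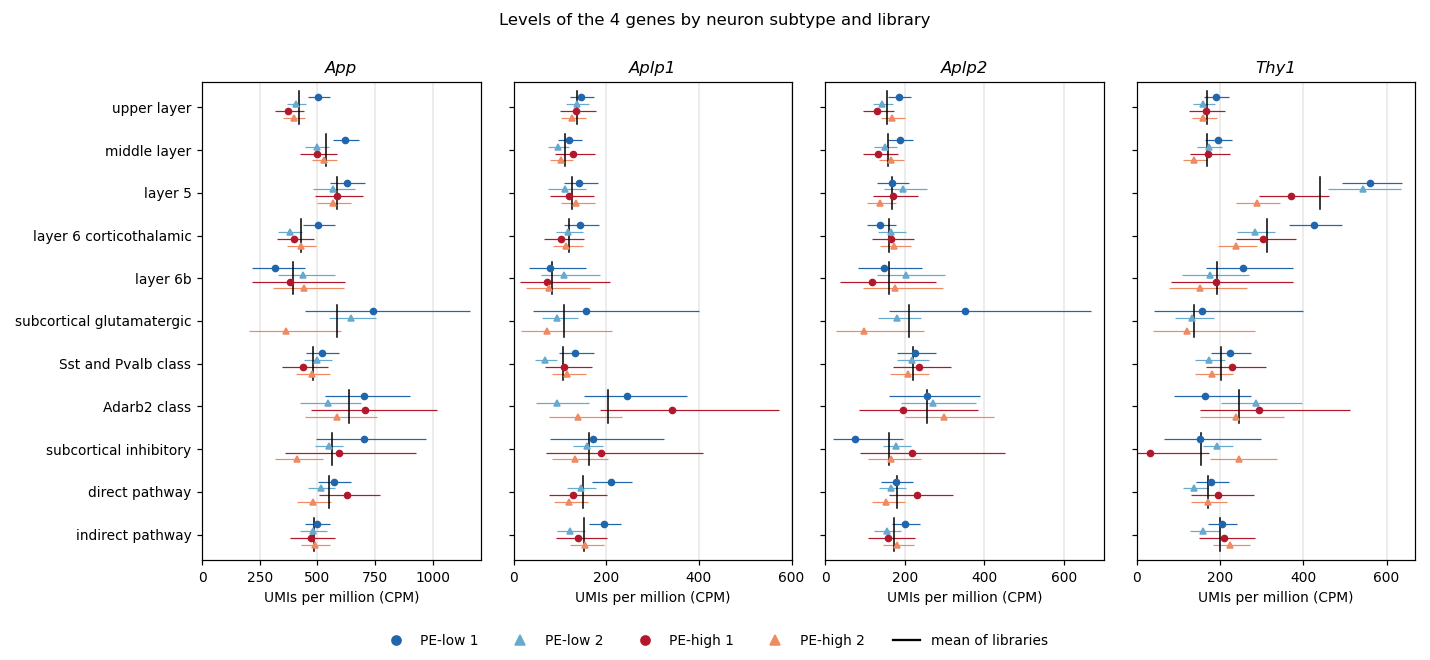
CPM of the 4 genes in 11 neuron subtypes, 1 point per library with its 95% Poisson interval and a bar for the mean. Thy1 is highest in layer 5 (288 to 561 CPM) and layer 6 corticothalamic neurons (238 to 426 CPM), and its PE-low points in layer 5 lie above its PE-high points.

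**Figure D4:**
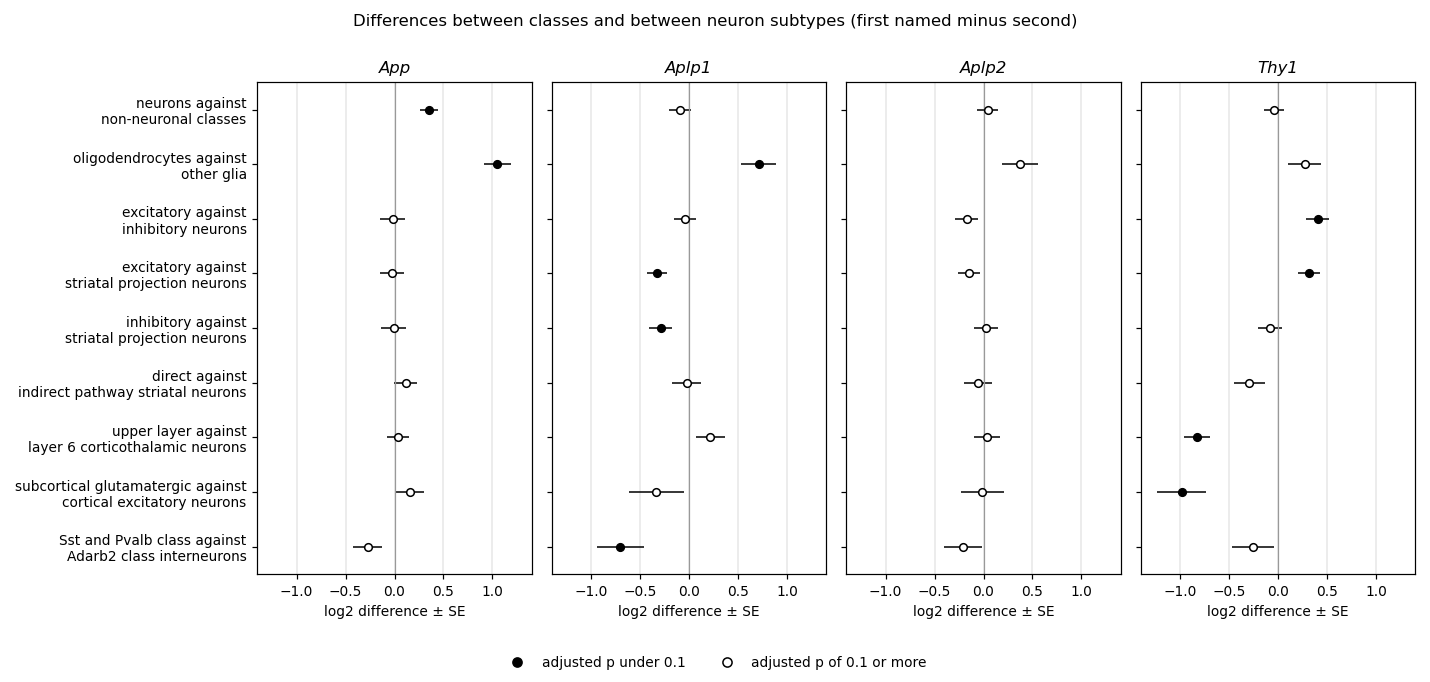
Log2 differences with SE for the 9 comparisons between classes or subtypes, first named minus second, with filled points where the edgeR adjusted p was under 0.1. App is called for neurons against glia, App and Aplp1 for oligodendrocytes against other glia, Aplp1 also for excitatory and inhibitory against striatal projection neurons and between the interneuron classes, Thy1 for excitatory against both other neuron classes, upper layer against layer 6 corticothalamic and subcortical against cortical neurons, and Aplp2 in none of the 9.

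The comparison the study was built for is that of PE-high with PE-low EVs. In excitatory neuron-like nuclei App read 548 and 468 CPM with PE-low and 459 and 472 CPM with PE-high EVs, and the ranges overlapped. The App values of striatal projection and inhibitory neuron-like nuclei did not overlap, with 531 and 481 against 479 and 475 CPM and with 583 and 536 against 524 and 507 CPM. Groups of 2 libraries can lie apart without an effect. The share of all genes whose groups lay apart was not computed, so nothing is read from these gaps. The App difference was -0.08 ± 0.11 in excitatory, -0.10 ± 0.13 in striatal projection and -0.09 ± 0.15 in inhibitory neuron-like nuclei and -0.06 ± 0.28 in oligodendrocyte-like nuclei (log2 ± SE, edgeR adjusted p = 1.00, 0.999, 1.00 and 0.996). Aplp1 ranged from -0.29 ± 0.32 in oligodendrocyte-like to 0.17 ± 0.18 in inhibitory neuron-like nuclei and Aplp2 from -0.31 ± 0.40 to 0.05 ± 0.15, none called. For Aplp2 the low value of oligodendrocyte-like nuclei came from PE-high library 1, with 83.2 CPM from 7 UMIs beside 268 CPM in PE-high library 2.

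Thy1 in excitatory neuron-like nuclei was lower in both PE-high libraries, but by a margin of 229.6 against 228 CPM at the closest. Its difference was -0.29 ± 0.13 (log2 ± SE, edgeR unadjusted p = 0.0319, adjusted p = 0.973). It was called without PE-low replicate 2 (-0.46), a fit in which the single PE-low library is assumed to vary like the PE-high libraries. That fit rests on PE-low library 1, at 294 CPM. With library 1 left out instead, the PE-low value was 229.6 CPM beside 228 and 191 CPM with PE-high EVs. In inhibitory neuron-like nuclei the Thy1 difference was 0.15 ± 0.16, in striatal projection neuron-like nuclei 0.05 ± 0.15 and in oligodendrocyte-like nuclei -0.35 ± 0.31, none called. The difference of the PE effect between excitatory and inhibitory neuron-like nuclei was -0.44 ± 0.18 (unadjusted p = 0.0201, adjusted p = 1) and that between excitatory and striatal -0.33 ± 0.17 (adjusted p = 0.891).

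No member was called in any of the 4 classes. edgeR called 2 of 13180 genes (0.0152%) in excitatory neuron-like nuclei, where 626 had an unadjusted p under 0.05, and DESeq2 called 0 with 128 such genes. In striatal projection neuron-like, inhibitory neuron-like and oligodendrocyte-like nuclei edgeR called 0 genes (0%), with 513, 353 and 225 at an unadjusted p under 0.05, and DESeq2 called 0, with 93, 42 and 47. For the difference of the PE effect, edgeR called 0.0394% of 12689 genes for excitatory against striatal, 0% for excitatory against inhibitory (520 genes at an unadjusted p under 0.05) and 0.0158% for inhibitory against striatal, no member among them, and DESeq2 called 0 genes in each (129, 64 and 152 at an unadjusted p under 0.05).

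**Figure D5:**
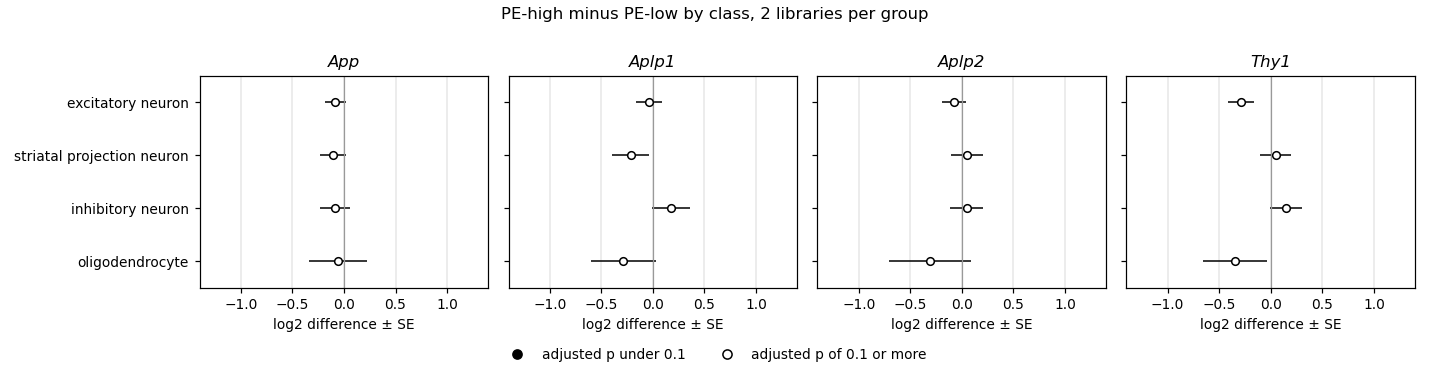
Log2 difference of PE-high minus PE-low with SE for the 4 genes in 4 classes of nuclei, 2 libraries per group. All points are open, since no adjusted p was under 0.1, and Thy1 in excitatory neurons lies at -0.29 ± 0.13.

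Within neuron subtypes, a unit chosen after the class results were seen, Thy1 in layer 5-like neurons showed the widest gap between the groups. The mean was 552 ± 13.1 CPM with PE-low and 330 ± 58.9 CPM with PE-high EVs (SD, n = 2 libraries each), a ratio of 1.67, and the 2 groups did not overlap. Over the 10 subtypes with all libraries, the PE-high values of Thy1 lay below all PE-low values in 2 and above them in 1. Groups of 2 libraries can lie apart without an effect. The share over all genes was not computed, so nothing is read from these counts or from the lack of overlap. The difference in layer 5-like neurons was -0.77 ± 0.17 (log2 ± SE, unadjusted p = 0.000157), and with edgeR's adjustment over 5560 genes it was not called (adjusted p = 0.436). Among the subtypes, alternatives of the PE comparison were run for layer 5-like neurons alone, which had the widest gap. Thy1 was lower there with PE-high EVs in each of the 13 alternatives, from -0.58 to -1.56. These refits reuse the same libraries, so their shared direction is not independent support. The adjusted p ranged from 0.000698 to 1.00, past the threshold in 7 of the 13. Without PE-high replicate 2 it was 0.817 and without PE-high replicate 1 0.105, while without PE-low replicate 1 or 2 it was 0.0521 or 0.0435, and each of these 4 fits assumes that the lone library of a group varies like the other group.

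The layer 5-like neurons formed 2 clusters, and the gap was present in both. The clusters are parts of the same libraries, so the second is not a replicate of the first. In the cluster with more Vat1l, a marker of layer 5 neurons that project below the cortex, Thy1 read 684 and 771 CPM with PE-low and 462 and 316 CPM with PE-high EVs. In the cluster with more Deptor, a marker of layer 5 neurons, it read 354 and 326 CPM against 183 and 233 CPM. These values came from 56, 47, 13 and 33 UMIs, so their counting error is wide. The Vat1l-rich cluster made up 59.4% and 47.1% of layer 5-like nuclei with PE-low and 66.7% and 63.8% with PE-high EVs, and the part of this makeup in the difference was not tested. Depth moved with the groups, with medians of 3203 and 4134 UMIs per layer 5-like nucleus against 2583 and 2345. Thy1 in near-empty barcodes also did, at 1374 ± 41.6 CPM with PE-low and 1215 ± 32.2 CPM with PE-high EVs. The 4 neuron markers summed to 5956 and 6370 CPM against 5807 and 5812 CPM, and 27 glial markers to 959 and 1056 CPM against 871 and 866 CPM. After thinning to 500 UMIs the difference was -0.88 ± 0.33 (adjusted p = 0.592), and after subtraction of released RNA -1.56 ± 0.25 (adjusted p = 0.0176), but the part of depth and released RNA in it was not tested further. The subtracted difference depends on the estimate of released RNA for this subtype, which is not given here.

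App in layer 5-like neurons read 627 and 567 CPM against 587 and 566 CPM, with a difference of -0.06 ± 0.15, and its groups overlapped. No member was called in any of the 10 subtypes with all libraries, and Aplp1 in layer 6b-like neurons was too low to be tested. edgeR called 0.0463% of genes in layer 6 corticothalamic-like, 0.0975% in middle layer-like and 0.0113% in upper layer-like neurons, and 0% in the other 7 subtypes, layer 5 among them, where 298 genes had an unadjusted p under 0.05 and DESeq2 called 0 with 34 such genes.

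Genes that cut, sort or bind the precursor protein were described through lists of 57 genes. The lists held 12 secretase genes, 12 adaptors of the cytoplasmic tail, 15 sorting receptors and trafficking genes, 7 other partners and proteases of the fragments, and 11 neuronal GPI-anchored immunoglobulin genes beside Thy1. With PE-high EVs 0 of the list genes were called by edgeR in each of the 4 classes, of 57, 53, 51 and 34 tested in excitatory, striatal projection, inhibitory neuron-like and oligodendrocyte-like nuclei. Their median differences were 0.04, -0.02, 0.02 and 0.19 on the log2 scale, beside 0.00, 0.00, 0.00 and -0.01 over all genes. The secretases alone had medians of 0.05 in excitatory (12 tested), -0.13 in striatal projection (11 tested) and 0.21 in inhibitory neuron-like nuclei (9 tested).

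Between classes, the list genes were among those available for clustering, so their counts describe the classes and test nothing. The genes named are those with the highest and lowest differences among the calls whose groups did not overlap. Between neurons and glia, 13 of 47 tested list genes were higher in neurons and 8 lower, 44.7% of them called beside 43.3% of all genes. None of the 7 secretase genes tested was among them, and 6 of 10 GPI-anchored immunoglobulin genes were higher. Against other glia, oligodendrocyte-like nuclei had 10 higher and 6 lower (34.0% called beside 20% of all genes), among them Bin1, an endocytosis gene with common variants linked to late-onset Alzheimer disease, at 2.37 ± 0.15 (log2 ± SE, edgeR adjusted p = 2.7e-20), and Ntm, a neuronal adhesion molecule, at -1.09 ± 0.17. Between excitatory and inhibitory neuron-like nuclei 14 were higher and 5 lower (40.4% beside 37.0%), among them Numb (1.41 ± 0.12) and Apba2 (0.98 ± 0.11), adaptors that bind the App tail, and Mme (-2.02 ± 0.32), which encodes the amyloid-beta degrading protease neprilysin, and Lsamp (-0.99 ± 0.18).

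Mme was highest in striatal projection neuron-like nuclei. It read 67.1 to 84.4 CPM in striatal projection neuron-like, 11.7 to 13.5 in inhibitory and 1.87 to 4.13 CPM in excitatory neuron-like nuclei, a difference of -4.77 ± 0.20 for excitatory minus striatal and -2.75 ± 0.20 for inhibitory minus striatal. Sorcs2, a sorting receptor, was also lower in excitatory (-0.99 ± 0.10) and inhibitory (-1.37 ± 0.12) than in striatal projection neuron-like nuclei. Apba2 (1.70 ± 0.11) and Opcml (1.24 ± 0.20) were higher in excitatory, and Apba1 (1.28 ± 0.11) and Bin1 (1.07 ± 0.13) in inhibitory neuron-like nuclei. Against striatal projection neurons, 16 list genes were higher and 8 lower in excitatory neuron-like nuclei, 51.1% called beside 48.7% of all genes. In inhibitory neuron-like nuclei 11 were higher and 11 lower, 46.8% beside 46.5%.

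Among subtypes, 2 list genes were higher and 3 lower in direct than in indirect pathway-like neurons (10.2% of 49 tested beside 4.97% of all genes), with Cntn3 (0.54 ± 0.13) and Dab1 (0.43 ± 0.12) higher and Sorcs2 (-1.07 ± 0.15) and Sorcs3 (-1.05 ± 0.17) lower. Upper layer-like neurons had 9 higher and 5 lower than layer 6 corticothalamic-like neurons (28.6% beside 23.3%), with Sorcs3 (2.33 ± 0.15) and Ntm (2.09 ± 0.12) higher and Lrp1b (-0.91 ± 0.12) and the alpha-secretase gene Adam10 (-0.41 ± 0.17) lower. Subcortical glutamatergic-like neurons had 9 higher and 9 lower (36.7% beside 18.9%), among them Cntn6 (1.61 ± 0.16), Sorcs2 (1.44 ± 0.21) and Opcml (-0.99 ± 0.12). The Sst and Pvalb class had 8 higher and 8 lower than the Adarb2 class (32.7% beside 10.0%), with Ntm (1.68 ± 0.15) higher and Sorcs3 (-2.89 ± 0.20) and Sorcs1 (-2.68 ± 0.19) lower. Mme was at 15.3 to 17.3 CPM in the Sst and Pvalb class and at 0 in every library of the Adarb2 class.

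Pearson's r of log2(CPM + 1), with libraries summed, was 0.30 between App and Aplp1, 0.42 between App and Aplp2, 0.22 between Aplp1 and Aplp2, and 0.02, 0.19 and -0.02 between Thy1 and App, Aplp1 and Aplp2. Among 8517 genes with at least 200 UMIs in the subtypes, the profiles most like that of App were those of Gpat4 (r = 0.89), Traf6, Dbnl, Usp20 and Zfyve27 (0.83). Those most like Aplp1 were Lig3 (0.90), Ndufa1, Ncl, Rpl13 and Snx3 (0.89), and those most like Aplp2 were Egfr (0.95), Dlx1as, Grip1, Trp53 and Pcf11 (0.90). For Thy1 they were Man2b1 (0.88), Pcgf5, 2610035D17Rik, Rbm22 and Mrps36 (0.77). The 11 points share libraries and differ in depth, and many of these genes had few UMIs, so the correlations describe the table only.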

How the data were processed

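Nuclei were isolated from OCT brain sections and sequenced with 10x Genomics 3' v3.1 chemistry. Per the labels, the authors aligned reads to mm10 with Cell Ranger 7.1.0 and deposited UMI counts for every barcode of 4 libraries. Whether intronic reads were counted is not given in the sources used here. Nuclei were called from the total UMIs (a knee rule, and a test against near-empty barcodes at 500 UMIs or more), then kept at 200 to 2500 genes and at most 3% mitochondrial UMIs, the limits of the methods. These left 10689 of 45536 called barcodes, fewer than the study states, and a limit of 15% left 37531, close to the number the study states. No doublet caller was run. Clusters were built with scanpy 1.11.5 without the 4 genes and named from fixed markers, with naming thresholds set after the clusters were seen. Counts were summed per library and class or subtype and tested with edgeR 4.0.16 (quasi-likelihood, TMM, filterByExpr, Benjamini-Hochberg over all genes tested, threshold 0.1), with the library as a block for contrasts between classes, since the methods tested nuclei and the library is the replicate. DESeq2 1.42.0, other filters, scalings and limits, thinning, subtraction of released RNA and leaving out each library were alternatives. PE effects within subtypes and scaling to total UMIs were chosen after seeing the data. The named genes were the 4 members, the 5 genes most like each by profile, and the 2 list genes highest and lowest per comparison among the calls without overlap. Members and lists were chosen with earlier results of these data known. The scripts were tested on simulated data. Depth was 29472021 to 43272337 UMIs per library, and intervals cover counting error only.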

Additional observations from a re-analysis of the deposited data

Results flagged for a closer look

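Among 10 neuron subtypes, the Thy1 values of the PE-high libraries lay above those of the PE-low libraries in 1 and below them in 2. Those of App lay below in 2, those of Aplp1 in 4 and those of Aplp2 in 0 of the 10. Groups of 2 libraries can lie apart without an effect, and the share over all genes was not computed. The difference between the subtypes was not tested. In indirect pathway-like neurons the PE-high libraries were higher, at 217 ± 10.1 against 182 ± 31.3 CPM (SD, n = 2), a log2 difference of 0.22 ± 0.21 (edgeR adjusted p = 0.996). In middle layer-like neurons they were lower, at 155 ± 22.9 against 184 ± 15.3 CPM, a log2 difference of -0.25 ± 0.19 (adjusted p = 0.989). In layer 5-like neurons they were lower, at 330 ± 58.9 against 552 ± 13.1 CPM, a log2 difference of -0.77 ± 0.17 (adjusted p = 0.436). None of the 3 was called.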

How the results depend on the processing

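Depth and released RNA limit these results, with as few as 1 UMI of a member behind a subtype value of a library and Thy1 and Aplp1 at 0 in every class after subtraction. Of 28 class levels of the members, 15 moved by at least their SD over libraries at a mitochondrial limit of 15%, 28 after subtraction and 8 after thinning to 500 UMIs. Where a call changed, the cause was not tested.

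The number of the 4 members called changed as follows. Leaving out each library gave 0 to 1 for PE-high against PE-low in excitatory neuron-like nuclei, 0 to 1 for excitatory against inhibitory, 0 to 2 for excitatory against striatal projection, 0 to 1 for inhibitory against striatal projection neurons and 0 to 1 for the Sst and Pvalb against the Adarb2 class. For neurons against non-neuronal classes, 2 were called with total-UMI scaling, 3 at a mitochondrial limit of 15% and 2 after subtraction. For oligodendrocytes against other glia, 4 were called at 15% and 1 after subtraction, where Aplp1 could not be tested. For excitatory against inhibitory neurons, 2 were called with total-UMI scaling, 2 at 15% and 0 after subtraction. For excitatory against striatal projection neurons, 1 was called after subtraction and 1 after thinning to 500 UMIs. For inhibitory against striatal projection neurons, 0 were called by DESeq2, with total-UMI scaling and with no upper limit on genes. For subcortical glutamatergic against cortical neurons, 2 were called by DESeq2, 2 with total-UMI scaling, 4 at 15%, 0 after subtraction and 0 after thinning. For the Sst and Pvalb against the Adarb2 class, 2 were called by DESeq2, 0 with no filter on low counts, 3 at 15%, 2 after subtraction, 0 after thinning and 0 at a threshold of 0.05.

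Differences of PE-high minus PE-low that turned in sign (log2) were all uncalled. Leaving out each library gave -0.18 to 0.016 for App, -0.13 to 0.035 for Aplp1 in excitatory, -0.47 to 0.029 for Aplp1, -0.085 to 0.18 for Aplp2 and -0.069 to 0.17 for Thy1 in striatal projection, -0.057 to 0.34 for Aplp1 in inhibitory neuron-like, and -0.17 to 0.042 for App and -1.499 to 0.19 for Aplp2 in oligodendrocyte-like nuclei. Thinning gave 0.036 for App and 0.13 for Aplp2 in excitatory, -0.085 for Aplp2 and -0.11 for Thy1 in striatal projection neuron-like and 0.056 for App in oligodendrocyte-like nuclei. The limit of 15% gave 0.045 for Aplp1 in excitatory, -0.016 for Aplp1 in inhibitory neuron-like, and 0.033 for Aplp2 and 0.014 for Thy1 in oligodendrocyte-like nuclei. No upper limit on genes gave 0.0042 for Aplp1 in excitatory, and subtraction -0.26 for Aplp2 in striatal projection neuron-like nuclei. Thy1 in subcortical glutamatergic against cortical neurons was 1.30 at 15%.

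Replicate numbers were shared across groups, but with 2 pairs and deviation correlations of 0.01 to 0.11 the samples share only a number. With the replicate number as a block, the 16 PE differences of members in the 4 classes kept their calls, with 0 members called, and Thy1 in layer 5-like neurons was called (-0.76, adjusted p = 0.00642). The share of calls that were higher moved with scaling, from 62.9% to 42.2% (DESeq2) and 39.8% (total UMIs) for neurons against non-neuronal classes, from 61.6% to 53.9% and 50.1% for oligodendrocytes against other glia, from 53.0% to 46.3% and 31.2% for excitatory against inhibitory, from 51.1% to 57.0% and 69.1% for inhibitory against striatal projection, from 46.9% to 60.2% and 63.6% for subcortical glutamatergic against cortical neurons, and from 57.9% to 42.7% and 51.2% for the interneuron classes.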

Other observations

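At a mitochondrial limit of 15%, further classes of nuclei could be named, and the members were measured in them too. Endothelial cell-like nuclei (203) held 664 ± 106 CPM of App and 320 ± 35.4 CPM of Aplp2 (SD over libraries). Neuroblast-like nuclei (539) held 464 ± 112 CPM of App, 249 ± 7.75 CPM of Aplp1 and 422 ± 44.8 CPM of Thy1. Fibroblast-like nuclei (129) held 539 ± 230 CPM of App and ependymal cell-like nuclei (40) 363 ± 85.6 CPM. Under the same limit Aplp1 in oligodendrocyte-like nuclei stood at 448 CPM, against 214 CPM under the limit of 3%. These values were not tested.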
